A study of Mus musculus with 2 samples.

Results

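The 10 imprinted growth genes H19, Igf2, Dlk1, Meg3, Cdkn1c, Mest, Igf2r, Plagl1, Peg3 and Grb10 were followed in αLPs, lymphoid progenitors that carry the integrin α4β7 and can give rise to innate lymphoid cells (ILCs). They were taken by symbol from the 27998 genes counted, and all 10 had at least 1 count in each library. The study profiled sorted αLPs of adult bone marrow and of embryonic (E14.5) fetal liver by droplet single-cell RNA sequencing. Both groups were untreated wild-type B6 mice, and both were sorted as live Lin-, CD45+, CD127+, Flt3-, α4β7+ and CD25- cells, with 1 library per tissue. The labels list an age of 6 to 8 weeks for both samples, even the fetal one. The sources used here do not say whether animals were pooled. The 2 libraries carried the same batch label.

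Cells with at least 500 detected genes and at most 10% of their UMIs on mitochondrially encoded genes were kept, a UMI being a count of 1 tagged RNA molecule. This left 7258 of 7367 bone marrow barcodes with 29941097 UMIs, and 8583 of 8946 fetal liver barcodes with 91285900 UMIs. The median depth was 3447.5 UMIs and 1249 genes per bone marrow cell, against 9294 UMIs and 2331 genes per fetal liver cell, and 19 barcodes stood in both libraries. Of the genes sorted for, Il7r, which encodes CD127, stood at 417 CPM in bone marrow and 178 CPM in fetal liver, where CPM is counts per 1000000 UMIs of a library. Ptprc, Itga4 and Itgb7, the genes of CD45 and of the integrin, were detected in both and lay within 2-fold. The female-expressed gene Xist had 2 UMIs in bone marrow and 23018 in fetal liver, so tissue and the sex of the animals cannot be told apart.

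In imprinted genes the copy inherited from 1 parent is active and the other is kept silent by DNA methylation or related marks set in the germ line. Many of them act on growth before birth: paternally expressed genes such as Igf2 tend to promote it, and maternally expressed genes such as Igf2r, Grb10 and Cdkn1c tend to restrain it. In the blood system H19, Dlk1, Meg3 and Cdkn1c are known from stem cells and from fetal tissues, and Dlk1 is also a known surface protein of fetal liver hepatoblasts. The counts do not separate the parental copies, so imprinting itself was not measured here.

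H19 and Igf2 lie side by side on mouse chromosome 7, and each holds a microRNA gene. These are shown because H19 had more UMIs in fetal liver than any other member and its spliced RNA is the precursor of a microRNA. RefSeq (GRCm38.p6) gives the mature microRNAs below, 5′ to 3′, with the seed (bases 2 to 8) in capitals. The miR-675 pair lies in an exon of H19 and the miR-483 pair in an intron of Igf2. No seed was shared among the 4, and the microRNAs themselves were not measured.
mmu-miR-675-5p: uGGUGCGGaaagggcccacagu
mmu-miR-675-3p: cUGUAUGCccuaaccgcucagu
mmu-miR-483-5p: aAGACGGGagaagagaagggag
mmu-miR-483-3p: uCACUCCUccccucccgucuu

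Dlk1 and Meg3 share an imprinted domain on chromosome 12, and both were lower in bone marrow, so their start sites are shown as well. Each window runs from 250 bases before to 50 bases after the annotated start (RefSeq, GRCm38.p6, plus strand), with CpG dinucleotides, the sites of DNA methylation, in capitals. The Dlk1 window is chr12:109452573-109452872 and the Meg3 window is chr12:109540746-109541045.
Dlk1: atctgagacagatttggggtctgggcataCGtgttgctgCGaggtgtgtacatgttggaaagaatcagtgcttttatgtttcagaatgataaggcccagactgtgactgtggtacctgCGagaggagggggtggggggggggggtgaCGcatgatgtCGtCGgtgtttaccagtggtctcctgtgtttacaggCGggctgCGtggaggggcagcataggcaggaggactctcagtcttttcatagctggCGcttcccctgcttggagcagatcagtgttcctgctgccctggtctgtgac
Meg3: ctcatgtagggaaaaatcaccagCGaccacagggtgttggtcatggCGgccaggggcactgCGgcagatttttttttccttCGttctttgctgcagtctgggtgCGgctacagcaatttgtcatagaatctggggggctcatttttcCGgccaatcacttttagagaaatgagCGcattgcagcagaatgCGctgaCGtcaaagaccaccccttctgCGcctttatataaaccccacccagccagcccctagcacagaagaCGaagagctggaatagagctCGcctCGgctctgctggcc
The Dlk1 window held 9 CpG sites and the Meg3 window 13, against a median of 7 over 32851 mouse promoter windows of the same length. Of those windows, 45.8% held at least as many as Dlk1 and 37.9% at least as many as Meg3. The hexamer TGCCGC, known as the core of the motif read by the imprint-protecting protein ZFP57, was searched on both strands. It has a CpG at its centre, so it overlaps the sites counted above. It was found in 6 of the 15 start-site windows of the 8 members with an entry (all but H19 and Cdkn1c), including the Meg3 window printed here. The share over all promoter windows was 11.6%. A pair of the Mest windows overlapped almost wholly and both counted.

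Bone marrow αLPs held far less RNA of most of these genes than fetal liver αLPs. H19 was 79.9-fold and Dlk1 91.8-fold lower in bone marrow, Igf2 6.45-fold and Cdkn1c 4.45-fold lower, whereas Igf2r differed little. Of the 4 members that reached 10 CPM in the higher library, all 4 were at least 2-fold lower in bone marrow and 0 were higher by that much. Among all 6938 genes at that level, 7.25% were at least 2-fold lower in bone marrow, and 10.9% were higher by 2-fold or more. The median log2 ratio, bone marrow over fetal liver, was -4.50 over those 4 members and -0.01 over all 6938 genes. All 4 members reached 10 CPM only through fetal liver, so a ratio below 0 was set by that minimum. The 6938 genes could pass through either library, so their share and median are not a like contrast. With 1 library per tissue no test was possible, and every interval below is a 95% interval that covers counting error only. Of the 10 members, 8 had an interval of the log2 ratio wholly below 0 and 0 had one wholly above 0.

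**Figure D1:**
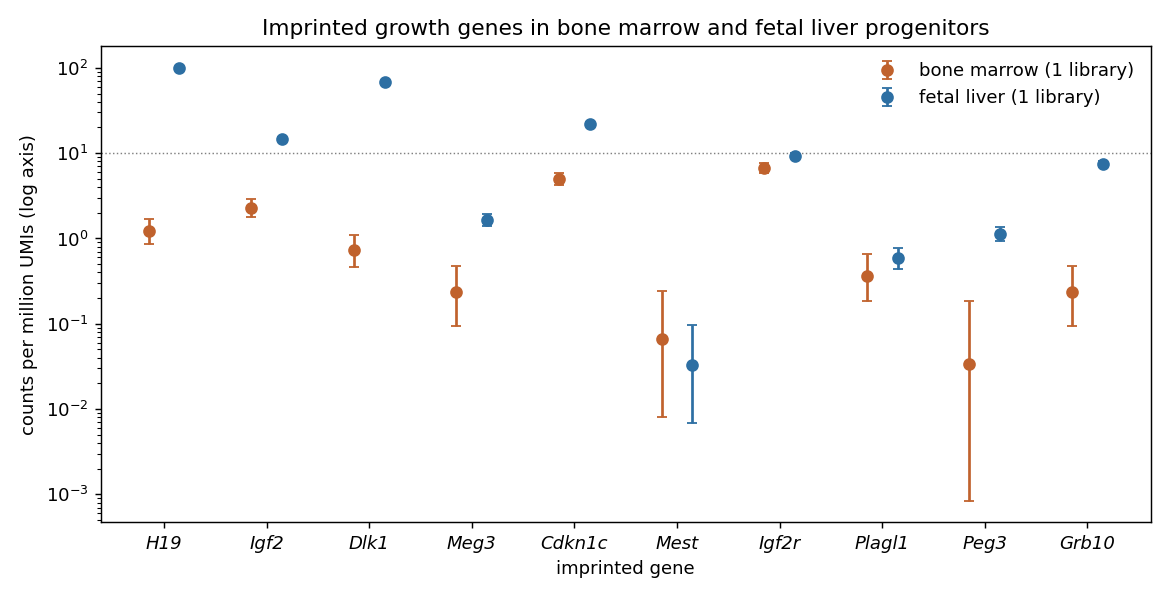
Level of each imprinted growth gene in CPM (log axis) in bone marrow (orange, left of each pair) and fetal liver (blue, right); points are 1 library each, bars are exact 95% Poisson intervals, and the dotted line marks 10 CPM. H19 stood at 1.24 CPM in bone marrow and 98.7 CPM in fetal liver, while Igf2r stood at 6.68 CPM in bone marrow and 9.36 CPM in fetal liver.

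H19 (chromosome 7, 142575529 to 142578143, minus strand, mm10), a maternally expressed long noncoding RNA, had 37 UMIs in bone marrow and 9009 in fetal liver. That is 1.24 CPM (0.870 to 1.70) in bone marrow and 98.7 CPM (96.7 to 100.7) in fetal liver, a log2 ratio of -6.32 (-6.83 to -5.86). The 10 cells with most H19 held 67.6% of the bone marrow UMIs, against 3.24% of the fetal liver UMIs. Without the 10 highest cells of each library the log2 ratio of H19 was -7.90, and with the marker-defined groups of cells described below weighing the same it was -7.38. Some of these groups were small in bone marrow and held 0 H19 UMIs, such as 97 cells with myeloid markers, which lowers the latter value.

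Igf2 (chromosome 7, 142650766 to 142666816, minus strand), the paternally expressed insulin-like growth factor 2, had 68 UMIs in bone marrow and 1337 in fetal liver. Its level was 2.27 CPM (1.76 to 2.88) in bone marrow and 14.6 CPM (13.9 to 15.5) in fetal liver, a log2 ratio of -2.69 (-3.06 to -2.34). In bone marrow these UMIs came from 26 cells, and the 10 highest of them held 69.1%. Without the 10 highest cells of each library the log2 ratio was -4.24, and with the marker-defined groups weighing the same it was -3.66. The 97 bone marrow cells with myeloid markers held 0 Igf2 UMIs as well. The antisense gene Igf2os, which overlaps Igf2, had 0 UMIs in bone marrow and 11 in fetal liver.

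Igf2r (chromosome 17, 12682406 to 12769664, minus strand) encodes the receptor that carries IGF2 to lysosomes for breakdown. It had 200 UMIs in bone marrow and 854 in fetal liver, or 6.68 CPM (5.79 to 7.67) in bone marrow and 9.36 CPM (8.74 to 10.004) in fetal liver. The log2 ratio of -0.49 (-0.72 to -0.26) lay within 2-fold, and Igf2r was the member with most UMIs in bone marrow. Its UMIs were spread thinly, with at most 2 in a bone marrow cell and 4 in a fetal liver cell. The antisense gene Airn, which overlaps Igf2r, stood at 1.67 CPM in bone marrow and 2.75 CPM in fetal liver. The sources used here do not say whether the counting used strand, so reads of such overlapping pairs may not be separated.

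Grb10 (chromosome 11, 11930508 to 12038683, minus strand) encodes an adaptor that dampens signalling from the insulin and IGF receptors. It had 7 UMIs in 7 bone marrow cells and 682 UMIs in 528 fetal liver cells. Its level of 0.234 CPM (0.0940 to 0.482) in bone marrow and 7.47 CPM (6.92 to 8.05) in fetal liver gave a log2 ratio of -5.00 (-6.32 to -3.95). With the marker-defined groups weighing the same it was -3.53. In bone marrow that value leans on 3 UMIs in 76 cells with erythroid, mast or megakaryocyte markers.

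Dlk1 (chromosome 12, 109452823 to 109463336, plus strand) encodes a membrane protein related to the Notch ligands. It had 22 UMIs in 16 bone marrow cells and 6158 UMIs in 2189 fetal liver cells, with up to 7 in a bone marrow cell and 68 in a fetal liver cell. Its level was 0.735 CPM (0.460 to 1.11) in bone marrow and 67.5 CPM (65.8 to 69.2) in fetal liver, a log2 ratio of -6.52 (-7.20 to -5.92). The 10 cells with most Dlk1 held 72.7% of its bone marrow UMIs and 4.69% of its fetal liver UMIs. Without the 10 highest cells of each library the ratio was -8.32, a fall that these shares make unavoidable.

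Meg3 (chromosome 12, 109541001 to 109571726, plus strand), a maternally expressed long noncoding RNA downstream of Dlk1, was scarce in both tissues. It had 7 UMIs in bone marrow and 152 in fetal liver, or 0.234 CPM and 1.67 CPM, a log2 ratio of -2.83 (-4.17 to -1.75). Of the fetal liver UMIs, 25.7% lay in the 10 highest cells. Meg3 is overlapped on the opposite strand by a counted gene model, so the limit on strand holds for it too.

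Cdkn1c (chromosome 7, 143458339 to 143461050, minus strand) encodes p57, an inhibitor of cyclin-dependent kinases. It had 149 UMIs in bone marrow and 2022 in fetal liver, or 4.98 CPM (4.21 to 5.84) and 22.2 CPM (21.2 to 23.1), a log2 ratio of -2.15 (-2.40 to -1.91). A single bone marrow cell held 39 of the 149 UMIs, and the highest fetal liver cell held 78 of 2022. Without the 10 highest cells of each library the ratio was -2.76, and with the marker-defined groups weighing the same it was -2.85.

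The other members were near the limit of detection in at least 1 tissue. Peg3 (chromosome 7, 6703892 to 6730431, minus strand), a paternally expressed zinc finger gene, had 1 UMI in bone marrow and 104 in fetal liver, with a counting interval of the log2 ratio from -10.41 to -2.58. Plagl1 (chromosome 10, 13060504 to 13131694, plus strand), a zinc finger factor known to act on other imprinted genes in mice, had 11 and 54 UMIs in bone marrow and fetal liver. Its log2 ratio of -0.69 had an interval of -1.77 to 0.26, so no difference was detectable at this depth. Mest (chromosome 6, 30723547 to 30748465, plus strand), a paternally expressed gene of the hydrolase fold family, had 2 UMIs in bone marrow and 3 in fetal liver, and no fold is given. A count of 3 equals 0.100 CPM in bone marrow and 0.0329 CPM in fetal liver.

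The share of cells with a UMI was compared after each cell had been thinned at random to 2000 UMIs, because the fetal liver cells were deeper. Thinning left 5923 bone marrow cells and 8452 fetal liver cells, and left out 1335 bone marrow and 131 fetal liver cells with fewer UMIs. H19 was found in 11 bone marrow cells (0.186%, exact interval 0.0927% to 0.332%) and in 970 fetal liver cells (11.5%, 10.8% to 12.2%). Dlk1 was found in 6 bone marrow cells (0.101%, 0.0372% to 0.220%) and in 888 fetal liver cells (10.5%, 9.86% to 11.2%). Igf2 was found in 0.236% of bone marrow and 2.22% of fetal liver cells, and Cdkn1c in 0.675% and 3.36%. For Igf2r the shares were 1.27% (0.997% to 1.58%) in bone marrow and 1.93% (1.65% to 2.24%) in fetal liver, the closest pair among these 5 genes. Before thinning, H19 was found in 0.303% of bone marrow and 25.8% of fetal liver cells, and Dlk1 in 0.220% and 25.5%.

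Most bone marrow αLPs held no UMI of any member. At least 1 was found in 369 bone marrow cells (5.08%) and 5025 fetal liver cells (58.5%) as deposited, and in 2.65% of bone marrow and 27.2% of fetal liver cells after thinning. In single fetal liver cells H19 reached 33 UMIs, and 229 cells held 10 or more, while in bone marrow the highest cell held 6. In bone marrow 15 of the 22 cells with H19 held exactly 1 UMI of it.

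Cells were then sorted by marker genes into sets called gates, to see in which cells the members were found. A cell joined the gate of which it held at least 2 markers and more than of any other. Cells tied between gates were kept apart (177 bone marrow and 825 fetal liver cells). Cells with fewer than 2 markers of every gate formed a further gate if they held a UMI of Zbtb16, and were called ungated if not. Zbtb16 encodes PLZF, a transcription factor that marks the common ILC progenitor. The gates are sets by marker, not proven cell types, and a gate with under 50 cells in a library is given no level there. Gates were formed for lymphoid tissue inducer (LTi) or ILC3 markers (81 bone marrow and 1187 fetal liver cells), natural killer (NK) or ILC1 markers (759 and 2510) and ILC2 markers (1527 and 764). Zbtb16 only was met by 980 bone marrow and 538 fetal liver cells, and 3267 and 1808 cells were ungated. Deeper cells meet a gate more easily: in fetal liver the median was 6291 UMIs in ungated and 17337 UMIs in myeloid marker cells. Each of the LTi or ILC3, NK or ILC1 and ILC2 gates had a UMI of every one of its markers in both libraries. The rule for joining a gate favours this, so it does not show what the cells are.

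H19 was highest in fetal liver cells with Zbtb16 only, at 330 CPM (315 to 345). B lineage marker cells followed at 132 CPM (119 to 146), then ungated cells at 103 CPM and cells with ILC2 markers at 93.7 CPM, whose intervals overlapped. NK or ILC1 marker cells stood at 82.9 CPM and erythroid, mast or megakaryocyte marker cells at 74.2 CPM, again with overlapping intervals. The lowest levels were 47.4 CPM in LTi or ILC3 marker cells and 33.5 CPM in myeloid marker cells. After thinning, 34.5% of fetal liver cells with Zbtb16 only held H19, against 3.57% in the LTi or ILC3 gate, the lowest share of any gate. The median depth before thinning was 10153 UMIs in the Zbtb16 gate and 6767 UMIs in the LTi or ILC3 gate. No gate is known to lack H19, so the part of RNA free in the droplets was not measured. The lowest share is only an upper limit for such RNA if it reached all gates alike, and by CPM the myeloid gate was lower still.

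Igf2 followed the same order at its top and bottom. It stood at 49.6 CPM (44.0 to 55.8) in fetal liver cells with Zbtb16 only, above 19.8 CPM (17.1 to 22.8) in ILC2 marker cells, and was lowest in myeloid marker cells at 2.98 CPM. From ILC2 marker cells down to LTi or ILC3 marker cells at 6.64 CPM, the interval of each gate overlapped that of the next.

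Dlk1 had another order. It was highest in fetal liver LTi or ILC3 marker cells, at 121 CPM (114 to 128), followed by cells with Zbtb16 only at 83.1 CPM, ungated cells at 83.0 CPM and NK or ILC1 marker cells at 75.6 CPM. The intervals of each neighbouring pair of those 3 overlapped. Myeloid marker cells at 31.3 CPM and ILC2 marker cells at 27.4 CPM were lower, and erythroid, mast or megakaryocyte marker cells were lowest at 13.8 CPM. Meg3 was also highest in LTi or ILC3 marker cells, at 4.07 CPM (2.88 to 5.58), but overlapped ungated cells at 3.58 CPM, and in NK or ILC1 marker cells it stood at 0.480 CPM.

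Cdkn1c was highest in fetal liver ILC2 marker cells, at 50.6 CPM (46.2 to 55.4), above erythroid, mast or megakaryocyte marker cells at 25.9 CPM (21.9 to 30.5). From there down to B lineage marker cells at 12.4 CPM each gate overlapped the next. Grb10 stood at 24.9 CPM (20.9 to 29.4) in erythroid, mast or megakaryocyte marker cells and 19.4 CPM (16.7 to 22.4) in LTi or ILC3 marker cells, whose intervals overlapped. Both lay above the 9.54 CPM of myeloid marker cells. Igf2r was highest in cells with Zbtb16 only at 14.6 CPM (11.6 to 18.1), overlapping NK or ILC1 marker cells at 12.0 CPM, and no gate was separated from its neighbour in that order.

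In bone marrow neighbouring gates in the order overlapped for every member, but some gates further apart did not. Igf2 stood at 5.01 CPM (3.14 to 7.59) in cells with Zbtb16 only, above NK or ILC1 marker cells at 1.03 CPM (0.280 to 2.63) and ILC2 marker cells at 0.188 CPM (0.00477 to 1.05). H19 stood at 2.51 CPM (1.25 to 4.49) in cells with Zbtb16 only, where 11 UMIs were counted, above 0 (0 to 0.695) in ILC2 marker cells. The 22 Igf2 UMIs in Zbtb16-only cells lay in 7 of 980 cells, and the 11 H19 UMIs in 5. After thinning, Igf2 was found in 0.525% (0.171% to 1.22%) of Zbtb16-only and 0.137% (0.00346% to 0.759%) of NK or ILC1 marker cells. H19 was found in 0.420% (0.115% to 1.07%) of Zbtb16-only cells. In ILC2 marker cells the share was 0 (0 to 0.330%) for both genes. These intervals overlapped, so neither order was separated by share of cells. By CPM, Zbtb16-only cells had the highest value of H19 and of Igf2 in both tissues. In bone marrow this rests on 5 cells for H19 and 7 for Igf2, and the intervals overlapped those of ungated cells. Dlk1 stood at 3.08 CPM (1.59 to 5.38) in NK or ILC1 marker cells, above 0.265 CPM (0.0545 to 0.773) in ungated cells. Its 12 UMIs there came from 6 NK or ILC1 marker cells, and 1 of these cells held 7. The intervals treat the UMIs of 1 cell as independent, so this order rests on 1 cell. Cdkn1c stood at 7.05 CPM (5.59 to 8.78) in ungated cells, above 2.64 CPM (1.44 to 4.42) in ILC2 marker cells. Of the 80 UMIs in ungated cells, 39 lay in 1 cell, so this order too leans on a single cell. The 81 LTi or ILC3 marker cells of bone marrow held no UMI of any member, where 3 UMIs would equal 9.01 CPM.

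**Figure D2:**
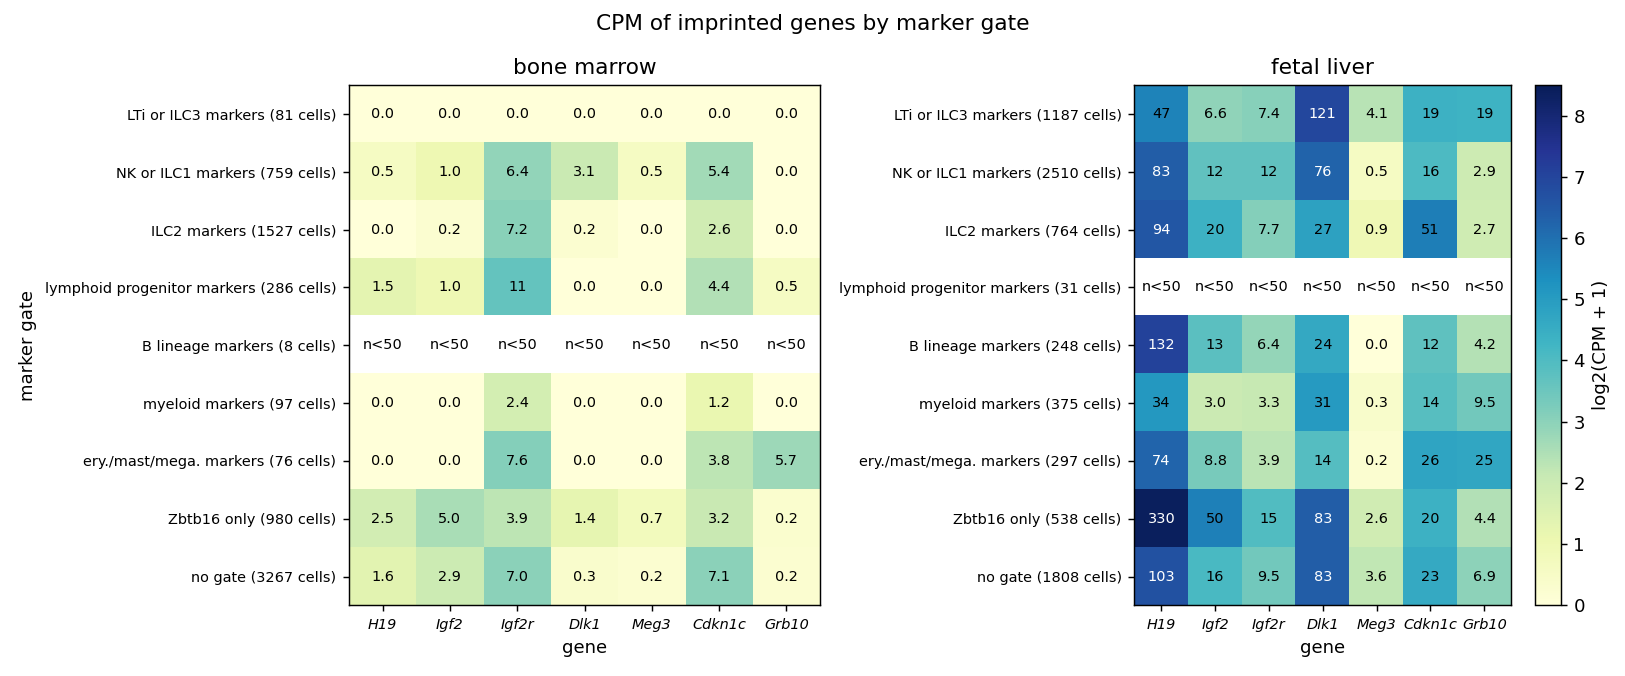
Level (CPM printed in each cell, colour on a log2(CPM + 1) scale) of 7 imprinted genes in cells grouped by marker genes, for bone marrow (left) and fetal liver (right); rows marked n<50 have under 50 cells and no level, and tied cells are not drawn. Down each fetal liver column H19 and Igf2 are highest for Zbtb16 only, Dlk1 for LTi or ILC3 markers, and Cdkn1c for ILC2 markers.

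The lower bone marrow levels of H19, Igf2, Dlk1 and Cdkn1c were also found within the NK or ILC1, ILC2 and Zbtb16-only gates. Within a gate the proportions of cell types weigh less. In NK or ILC1 marker cells H19 had 2 UMIs in bone marrow and 2246 in fetal liver, a log2 ratio of -7.34 (-10.38 to -5.48). In the same cells Dlk1 stood at -4.62 (-5.57 to -3.81), Igf2 at -3.54 (-5.42 to -2.17) and Cdkn1c at -1.53 (-2.24 to -0.90). Meg3, with 2 UMIs in bone marrow and 13 in fetal liver, stood at 0.10 (-3.09 to 2.24) there, so no difference was detectable. Of the 5 members at 10 CPM or more in that gate, 4 were at least 2-fold lower in bone marrow, against 7.74% of all genes at that level in the gate, and Igf2r at -0.90 was not. All 5 reached 10 CPM there only through fetal liver, so a ratio below 0 was set by that minimum. The share over all genes, which could pass through either library, is not a like contrast.

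In ILC2 marker cells H19 had 0 UMIs in 1527 bone marrow cells and 890 in 764 fetal liver cells, at least 166-fold lower in bone marrow against a floor of 3 UMIs in that gate. Igf2 and Dlk1 had 1 UMI each in these bone marrow cells, against 188 and 260 in fetal liver, and Cdkn1c had a log2 ratio of -4.26 (-5.14 to -3.50). All 4 members at 10 CPM or more in the gate were at least 2-fold lower, against 11.0% of genes. These 4 also passed only through fetal liver, so their direction was set by the minimum. Igf2r, under that minimum, stood at 7.16 CPM in bone marrow and 7.68 CPM in fetal liver ILC2 marker cells, a log2 ratio of -0.10 (-0.71 to 0.48).

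In cells with Zbtb16 only H19 had 11 UMIs in bone marrow and 1875 in fetal liver, a log2 ratio of -7.04 (-8.04 to -6.20). The ratio was -5.92 for Dlk1, -3.31 for Igf2, -2.61 for Cdkn1c and -1.91 (-2.76 to -1.15) for Igf2r. All 5 members at 10 CPM or more in the gate were at least 2-fold lower in bone marrow, against 9.54% of genes. Here too they passed only through fetal liver, so their direction was set by the minimum. The ratio of Igf2r in Zbtb16-only cells and in ILC2 marker cells had intervals that did not overlap.

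Markers of non-blood cells were read beside these levels, because fetal hepatocytes and stroma are known sources of H19, Igf2 and Dlk1. The 10 hepatocyte genes summed to 27.1 CPM in bone marrow and 23.4 CPM in fetal liver, but they did not move alike. Trf alone made 14.8 and 9.20 CPM, and Trf, Afp and Ahsg were higher in bone marrow. All the others had lower values there, among them Apoa2 at 3.14 CPM in bone marrow and 6.66 CPM in fetal liver. For Alb, Serpina1a and Fgb the interval of the log2 ratio reached above 0, so a difference was not detectable. Ttr had 0 UMIs in bone marrow and 29 in fetal liver. Alb, the albumin gene, had 0 UMIs in bone marrow and 6 in fetal liver, at 0.0657 CPM, and 5 of the 10 genes were at 0 in bone marrow. Within fetal liver gates their sum ran from 11.7 CPM in B lineage to 37.8 CPM in Zbtb16-only cells, led there by Ahsg at 16.2 CPM. The 12 stroma and endothelium genes summed to 95.3 CPM in bone marrow and 18.97 CPM in fetal liver, of which Stab2 alone made 89.0 and 16.7 CPM. The collagen genes Col1a1 and Col3a1 had 1 and 0 UMIs in bone marrow and 1 and 3 in fetal liver. The 7 haemoglobin genes summed to 20.6 CPM in bone marrow and 182 CPM in fetal liver, with 1134 CPM in ungated fetal liver cells and 39.6 CPM in those with Zbtb16 only. Their part in the members' levels was not tested.

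Igf2 was found more often in fetal liver cells with H19 than in those without it. Of the 970 thinned fetal liver cells with H19, 109 also held Igf2 (11.2%, exact interval 9.32% to 13.4%), against 1.06% (0.837% to 1.31%) of the cells without H19. Within NK or ILC1 marker cells the shares were 10.8% (7.28% to 15.2%) with H19 and 0.447% (0.214% to 0.820%) without. In unthinned fetal liver cells 1125 of the 1337 Igf2 UMIs (84.1%) lay in cells with H19, which made up 25.8% of the cells.

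In bone marrow 22 cells held H19 and 26 held Igf2, and 1 cell held both, with 9 Igf2 UMIs and 1 of H19, too few to compare the pairing between tissues. In fetal liver 2213 cells held H19 and 572 held Igf2, and 422 held both. The share of fetal liver cells with Igf2 was higher the more H19 a cell held. It was 2.35% with no H19 UMI, 8.39% with 1, 15.1% with 2 to 4, 27.8% with 5 to 9 and 53.3% with 10 or more. Deeper cells hold more of every gene, and these shares were not thinned.

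**Figure D3:**
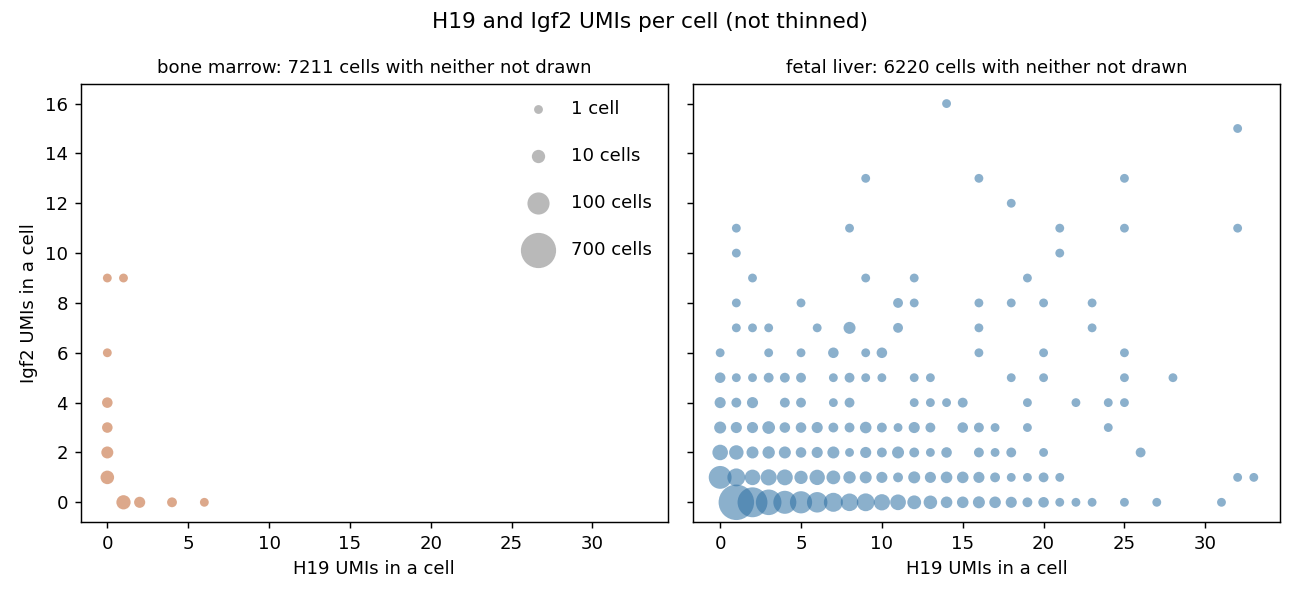
H19 UMIs (horizontal) and Igf2 UMIs (vertical) per cell, not thinned, in bone marrow (left) and fetal liver (right); each point is a pair of values and its area grows with the number of cells, and cells with neither gene are left out. In bone marrow 1 cell held both genes, while 422 fetal liver cells did.

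The other pair from a shared imprinted domain, Dlk1 and Meg3, was less clear. Meg3 was found in 14 of 888 thinned fetal liver cells with Dlk1 (1.58%, 0.865% to 2.63%) and in 0.278% (0.172% to 0.424%) of those without. Within NK or ILC1 marker cells, however, 0 of 265 cells with Dlk1 held Meg3 (0 to 1.38%), against 0.179% of those without, so the pairing was not detectable there. In bone marrow 1 cell held both.

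Genes of different domains were compared in the same way. Dlk1 was found in 11.5% (9.60% to 13.7%) of thinned fetal liver cells with H19 and in 10.4% (9.69% to 11.1%) of those without. Within NK or ILC1 marker cells these shares were 16.9% (12.6% to 22.0%) with H19 and 9.87% (8.67% to 11.2%) without. Grb10 in NK or ILC1 marker cells was found in 2.31% (0.851% to 4.95%) of those with H19 and 0.402% (0.184% to 0.762%) of those without, and in 2.26% (0.835% to 4.86%) with Dlk1 and 0.403% (0.184% to 0.763%) without, each from 6 cells with both. Over all thinned fetal liver cells the Grb10 intervals overlapped, at 1.55% with and 1.64% without H19, and at 2.25% with and 1.56% without Dlk1. Cdkn1c was found in 2.14% (1.29% to 3.32%) of cells with Dlk1 and 3.50% (3.10% to 3.94%) of those without. Igf2r was found in 3.20% (2.18% to 4.51%) of cells with H19 and 1.76% (1.48% to 2.09%) of those without. Within NK or ILC1 marker cells the intervals of both these pairs overlapped. There Cdkn1c was found in 1.13% (0.234% to 3.27%) with Dlk1 and 2.78% (2.13% to 3.54%) without. Igf2r was found in 3.85% (1.86% to 6.96%) of NK or ILC1 marker cells with H19 and 2.72% (2.09% to 3.49%) without. In unthinned cells H19, Igf2 and Dlk1 were found together in 0 bone marrow and 129 fetal liver cells.

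**Figure D4:**
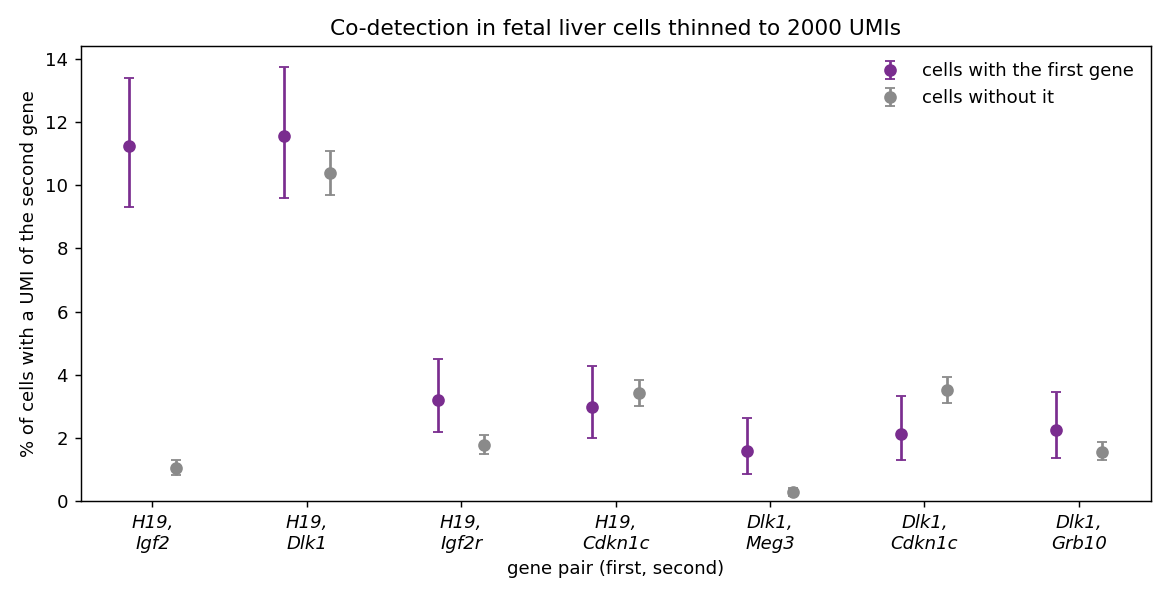
Percent of fetal liver cells, thinned to 2000 UMIs, that held the second gene of a pair among cells with the first gene (purple, left) and without it (grey, right); bars are exact 95% intervals. The gap is widest for H19 and Igf2, at 11.2% with and 1.06% without.

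Cells were also split by a single transcription factor gene, of which Zbtb16 was a gate marker too. In thinned fetal liver cells H19 was found in 25.6% (21.8% to 29.7%) of cells with Zbtb16 and 10.6% of those without. Of cells with Gata3, the factor that directs ILC2 development, 18.2% (16.3% to 20.2%) held H19, against 10.02% of those without. For Dlk1 the intervals with and without Zbtb16 overlapped, at 10.4% (7.87% to 13.4%) with and 10.5% (9.85% to 11.2%) without.

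Dividing cells were fewer in bone marrow and were looked at apart, since several members act on growth. A thinned cell with at least 2 of 16 G2 and M phase genes was counted as dividing, which was met by 7.77% of bone marrow and 37.3% of fetal liver cells. In fetal liver H19 was found in 9.10% (8.12% to 10.2%) of dividing cells and 12.9% (12.0% to 13.8%) of the others, and Dlk1 in 9.38% (8.39% to 10.5%) and 11.2% (10.3% to 12.1%). Cdkn1c, which inhibits division, was found in 3.55% (2.93% to 4.26%) of dividing and 3.25% (2.79% to 3.76%) of other fetal liver cells. Among the 460 dividing bone marrow cells H19 and Dlk1 were found in 0, with an upper bound of 0.799%. In the other 5463 bone marrow cells the shares were 0.201% for H19 and 0.110% for Dlk1. Both lie under that bound, so the 2 classes could not be told apart. The number of G2 and M phase genes found also moves with the RNA content of a cell.

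The rest of the IGF axis did not move as one with Igf2. Of 21 genes of this list, 7 reached 10 CPM, of which 3 were lower and 3 higher in bone marrow by at least 2-fold. The lower ones were the IGF2 mRNA-binding proteins. Igf2bp1 had 0 UMIs in bone marrow and 2050 in fetal liver, at least 224-fold lower in bone marrow against 3 counts, Igf2bp2 stood at -4.65 and Igf2bp3 at -3.88. Higher in bone marrow were the insulin receptor substrate gene Irs2 at 2.25, the IGF-binding protein gene Igfbp4 at 2.16 and the receptor gene Igf1r at 1.18, at 36.0 CPM in bone marrow and 15.9 CPM in fetal liver. Insr, the insulin receptor gene, stood at 8.82 and 4.66 CPM in bone marrow and fetal liver, under the minimum.

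Cdkn1c differed in direction from its closest relatives. Of the inhibitors of cyclin-dependent kinases, Cdkn1a, which encodes p21, stood at 124 CPM in bone marrow and 30.6 CPM in fetal liver, a log2 ratio of 2.02 (1.94 to 2.09). Cdkn1b, which encodes p27, had 73.7 CPM in bone marrow and 27.8 CPM in fetal liver, with a log2 ratio of 1.41 (1.32 to 1.49). Of the 6 listed inhibitors other than Cdkn1c, 3 reached 10 CPM, and the third, Cdkn2d, lay within 2-fold. Among Notch genes, to whose proteins DLK1 is thought to be linked, 2 of 5 listed genes reached 10 CPM. Notch2 stood at 179 CPM in bone marrow and 50.2 CPM in fetal liver, a log2 ratio of 1.84, and Notch1 lay within 2-fold. Hmga2, a chromatin factor known from human studies to lie upstream of PLAG1 and IGF2, stood at 9.85 CPM in bone marrow and 46.7 CPM in fetal liver, a log2 ratio of -2.24.

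Imprinted genes outside the 10 members did not share their direction. Of 62 listed, 56 were in the gene table and 16 reached 10 CPM, of which 2 were at least 2-fold lower in bone marrow, 3 higher and 11 within 2-fold. Their median log2 ratio was -0.40. Mcts2, a retrotransposed translation factor gene, stood at 0.635 CPM in bone marrow and 29.5 CPM in fetal liver, and Ddc, which encodes aromatic amino acid decarboxylase and is a neighbour of Grb10, at 2.54 and 26.7 CPM. The lipid transfer gene Osbpl5 at 1.78 and the splicing factor gene Zrsr1 at 1.74 were higher in bone marrow. Chosen after their values were seen, Snrpn and Ndn, under 10 CPM, were at -5.13 and -3.72. Of 15 genes that set or keep imprints, 10 reached 10 CPM and 9 of these lay within 2-fold. Uhrf1, which guides maintenance of DNA methylation at replication, stood at -1.10, and the methyltransferase gene Dnmt1 at -0.66. Zfp57, chosen after its values were seen and under 10 CPM, stood at 9.62 CPM in bone marrow and 0.898 CPM in fetal liver.

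The genes most like each member were listed by Pearson's r of log2(CPM + 1) over the 16 combinations of library and gate with at least 50 cells, as a description with no test. For H19 they were Igf2bp1 (0.97), Xist (0.97), Aldh7a1, Drg2 and Mcts2 (all 0.96). For Dlk1, Drg2 and Aldh7a1 both reached 0.96. The points fall into their 2 libraries, which differ in depth, and Xist, with 2 UMIs in bone marrow, was among the most alike genes. Over the 8 fetal liver gates alone, H19 was most like Rasa1 (0.97) and Mvb12b (0.95), Igf2 like Nipal1 (0.97) and Dlk1 like Srgap3 (0.99) and Igfbp7 (0.98). Cdkn1c was most like Clptm1l (0.96), Igf2r like Tnfrsf9 (0.98) and Grb10 like Tpd52l2 (0.96). The lists for H19 over both libraries and over fetal liver alone shared no gene.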

How the data were processed

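The deposited matrices are unnormalized UMI counts for each gene and barcode, per the labels' protocols from a 10x Chromium 3' kit, with barcodes of no cell filtered out by the authors. Deposited gene and barcode lists (other) hold no measurements. The submitters' processing notes name mm10 and Seurat 4.0; per the file headers, software version 3.0.1 wrote the matrices. The sources used here name no aligner or annotation release. Counts were summed per library and scaled to 1000000 UMIs (CPM). Log2 ratios are bone marrow over fetal liver, with exact conditional intervals from the binomial split of the counts; levels have exact Poisson and shares Clopper-Pearson intervals, all at 95% and for counting error only. No test was made, with 1 library per tissue. A fold against 0 uses 3 counts as floor, per library or, within a gate, per gate. No doublet caller was run. Coordinates are from GENCODE M21. The members, lists and alternatives were chosen with earlier results of these data known; named genes are the members, the 5 most alike genes of each member with at least 200 UMIs and up to 4 genes per list by size, and others were chosen after their values were seen. In counts simulated with Poisson noise only, 200 of 200 changed genes were recovered, and 94.7% of intervals over 6281 genes held the true value. The simulation had no clumping of UMIs in single cells and no genes under 10 CPM, so it does not cover clumped or scarce members. Python 3.11.15, scipy 1.17.1 and edgeR 4.0.16 (for TMM) were used.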

Additional observations from a re-analysis of the deposited data

How the results depend on the processing

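No paired analysis was possible because there was 1 library per tissue. The 4 members at least 2-fold lower in bone marrow became 7 of 10 with no minimum and a pseudocount of 1 CPM, and 2 of 2 when a member had to reach 50 CPM, as fewer or more members were counted. With gates weighing the same it was 5 of 5, in every other setting tried it was 4, and 0 members were at least 2-fold higher in any of the 12. In the main setting the 4 reached the minimum only through fetal liver, so their direction was set by it. For the 8 members with an interval below 0, all 92 alternative log2 ratios stayed below 0, from -7.90 to -5.48 for H19, -4.24 to -2.26 for Igf2, -8.32 to -5.30 for Dlk1, -2.85 to -1.95 for Cdkn1c, -0.76 to -0.43 for Igf2r, -5.25 to -1.05 for Peg3, -5.45 to -2.78 for Grb10 and -3.30 to -1.11 for Meg3. For H19, Igf2 and Dlk1 the low end came from leaving out the 10 highest cells, which held most of their bone marrow UMIs. TMM moved every log2 ratio by -0.14 and a median-ratio factor by -0.16. For Mest, with 5 UMIs in all, the ratio ran from -1.79 to 1.42. Of 16 alternative gate levels, 14 kept their rank; with gates read from thinned cells Grb10 was highest in LTi or ILC3 marker cells at 24.6 CPM, above 20.5 CPM in erythroid, mast or megakaryocyte marker cells. H19 in fetal liver cells with Zbtb16 only was 282 CPM with gates from thinned cells and 251 CPM with 3 markers per gate, first in both. The likeness over fetal liver gates alone was added after the data were seen. Depth limits Meg3, Mest, Plagl1 and Peg3, and the order of neighbouring bone marrow gates; the spread between animals was not measured.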
